A study of Mus musculus with 30 samples.

Results

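The AP-1 transcription factors of the FOS, JUN and BATF branches were followed through every expression table of the series. The family is 9 genes chosen by symbol, with earlier results of these data known: Fos, Fosb, Fosl1 and Fosl2, then Jun, Junb and Jund, then Batf and Batf3. All 9 were found among the 31854 genes listed for leukemia cells, the 34406 listed for normal progenitors and the 32457 gene symbols of the leukemia lines. RNA was sequenced from 30 samples of C57BL/6 mouse cells, in 10 groups of 3. CALM/AF10 cells are acute myeloid leukemia (AML) cells named for their fusion, and they were sampled at 0, 6 and 10 h of exposure to RG3039, an inhibitor of the mRNA decapping scavenger enzyme Dcps, given at 1 µM per the file headers. Normal granulocyte-macrophage progenitors (GMP) from bone marrow were sampled at the same 3 times under the same drug. The other 4 groups are AML lines: MLL/AF9 line 2, MLL/AF9 line 1, CALM/AF10 line 2 and CALM/AF10 line 1. The labels carry the text on RG3039 treatment for the lines too, but no time of exposure, so whether the lines had met the drug is not known, and how the fusions were introduced is not given in the sources used here.

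Each group holds 1 cell line or 1 kind of cell, and nothing in the labels says that its 3 samples came from separate cultures or animals, so the p-values measure only the spread between these samples, which may be technical. No sample without drug at 6 or 10 h is analysed here, so the drug and the time in culture cannot be told apart. Levels are in TPM, the transcripts of a gene in every 1000000, already corrected for transcript length. The tables of CALM/AF10 cells, GMP and lines were normalized separately, so levels in different tables are only set side by side. The 9 markers of GMP and myeloid progenitors, led by Elane or Mpo in the time courses, all averaged at least 1 TPM in every group. Depth is unknown for the time courses, because TPM keeps none. In the lines the depth was 8739673 to 25194822 estimated reads a sample. Within groups, pairs of samples correlated at 0.949 to 0.991 across genes, and no 2 samples held identical values.

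AP-1 is a pair of basic leucine zipper proteins. FOS proteins bind DNA only with a partner, usually a JUN protein, whereas JUN proteins also pair with themselves, and BATF proteins pair with JUN proteins in blood cells. Fos, Fosb, Jun and Junb are classical immediate early genes, switched on within minutes of a growth or stress signal through kinases of the MAPK pathway, and their mRNAs are then removed fast through AU-rich elements at the 3′ end. In myeloid cells the family takes part in monocyte and macrophage differentiation, and Junb restrains the growth of myeloid progenitors in mice.

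The 4 immediate early members are shown first by their promoters, 150 bases upstream of the start in RefSeq (GRCm38.p6), because the results turn on Fos, Fosb and Jun, with Junb beside them as the early gene that changed less. Positions are chr12:85473740-85473889 on the plus strand for Fos, chr7:19310046-19310195 on the minus strand for Fosb, chr4:95052223-95052372 on the minus strand for Jun and chr8:84978749-84978898 on the minus strand for Junb. The capitals mark TGACG, the core letters recognised by CREB and ATF proteins, or in Jun TGACATCA, a form of TGACNTCA known as a site for JUN and ATF2 proteins.
Fos: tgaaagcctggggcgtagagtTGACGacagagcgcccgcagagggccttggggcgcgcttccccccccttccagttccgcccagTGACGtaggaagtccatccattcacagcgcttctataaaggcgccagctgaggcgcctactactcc
Fosb: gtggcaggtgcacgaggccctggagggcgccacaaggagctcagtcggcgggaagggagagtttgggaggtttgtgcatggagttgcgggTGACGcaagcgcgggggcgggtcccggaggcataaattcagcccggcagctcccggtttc
Jun: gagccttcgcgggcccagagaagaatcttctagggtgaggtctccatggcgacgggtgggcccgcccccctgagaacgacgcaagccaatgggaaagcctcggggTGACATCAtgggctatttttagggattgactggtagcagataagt
Junb: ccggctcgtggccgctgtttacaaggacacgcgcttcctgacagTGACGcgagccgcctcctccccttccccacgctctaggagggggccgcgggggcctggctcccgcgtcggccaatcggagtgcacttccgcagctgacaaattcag
TGACG began 129 and 66 bases upstream of the start in Fos, 60 bases upstream in Fosb and 106 bases upstream in Junb, and TGACATCA began 45 bases upstream in Jun. Of the other members, Batf had TGACG 98 bases upstream. RefSeq promoters were matched for 8 of the 9 members, and the letters were searched in windows of 300 bases, from 250 bases before the start to 50 after it. Over 32851 such windows of mouse genes, TGACG stood in 20.8%, TGACNTCA in 8.83%, TGANTCA (the classical AP-1 site) in 7.81%, TATAAA in 8.32% and the CArG box of serum response factor in 1.63%. TATAAA was searched on the gene's own strand and the others on both strands, and TGACG and TGACNTCA can share letters. Neither TGANTCA nor a CArG box stood in any of the 8 windows, and letters further upstream were not searched. TATAAA stood in Fos, 33 bases upstream, and at the RefSeq start itself in Junb. For some members this start differs from the GENCODE start given below. It lies upstream of that in Junb (84978748 against 84978718) and Jund (70697739 against 70698949), and level or downstream in the other matched members. These letters were chosen after the promoters had been seen, and a match is a description, not a site in use.

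The second set of sequences is the AU-rich stretch of the 3′ untranslated region, shown because the members differ in it. Each line is 28 bases from GRCm38, with the pentamer ATTTA in capitals, at chr12:85477101-85477128 on the plus strand for Fos, chr4:95049208-95049235 on the minus strand for Jun, chr8:84977128-84977155 on the minus strand for Junb and chr5:32156865-32156892 on the plus strand for Fosl2.
Fos: tgtgttttcaATTTATTTAttaagatgg
Jun: tcATTTAtaatcataggaaagATTTAgt
Junb: atatatttgtgtATTTAacagggagggg
Fosl2: attgacATTTAttttattATTTAtttta
The whole 3′ region held ATTTA 4 times in Fos, 4 times in Jun, 2 times in Junb, 8 times in the long region of Fosl2, 1 time each in Fosb, Fosl1 and Jund, and not at all in Batf or Batf3. Per kilobase that was 4.91 in Fos, 4.12 in Junb and 3.24 in Jun, against a median of 1.12 over 20617 mouse coding genes, and 1.88 in Jund, 1.72 in Fosl2, 1.57 in Fosl1 and 0.466 in Fosb. The longer element TTATTTATT stood in Fos and Fosl2 and in 6.91% of the coding genes.

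The members lie apart in the genome except for Fos and Batf, which share a stretch of chromosome 12. In GENCODE M21 on GRCm38, Fos spans chr12:85473890-85477273 on the plus strand and Batf chr12:85686669-85709087 on the plus strand. Fosb spans chr7:19302696-19310051 on the minus strand, Fosl1 chr19:5447547-5455946 on the plus strand and Fosl2 chr5:32135801-32157842 on the plus strand. Jun spans chr4:95049034-95052222 on the minus strand, Junb chr8:84974484-84978718 on the minus strand, Jund chr8:70698949-70700616 on the plus strand and Batf3 chr1:191097847-191108945 on the plus strand. Jun, Junb and Jund are single-exon transcripts, a form found in 4.89% of coding genes. The proteins run from 118 residues in Batf3 and 125 in Batf to 380 in Fos. An annotated gene on the opposite strand overlaps Jun (Junos), Jund (Gm11175), Junb (Prdx2) and Fosl1 (Ccdc85b), and since the strand setting of the counting is not given in the sources used here, reads of these pairs may not be told apart.

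In GMP, all 9 members changed at 6 h and again at 10 h: Fos, Fosb, Fosl2, Jun, Junb and Jund were lower and Fosl1, Batf and Batf3 higher than at 0 h. In CALM/AF10 cells the differences at these times were small, the largest among the 7 members tested being -0.34 on the log2 scale, for Jun at 10 h. A call is an adjusted p under 0.05 from limma on log2(TPM + 1), with Benjamini-Hochberg adjustment over all genes tested, and changes on this scale understate those of low genes. Of the 14246 genes tested in GMP, 44.0% were called at 6 h, 24.1% higher and 19.9% lower, against 9 of 9 members. At 10 h 45.1% of genes were called, 23.7% higher and 21.5% lower, again against 9 of 9. Of these 9, Fosb passed the filter of at least 1 TPM in 3 samples only through the 0 h samples, and Batf3 only through the treated ones, so both had to differ. The members' median size of change in GMP, whatever the direction, was 2.09 at 6 h with these 2 included, against 0.333 over all genes tested. Of 12815 genes tested in CALM/AF10 cells, 12.6% were called at 6 h (5.44% higher and 7.14% lower), against 3 of the 7 members tested, 1 higher and 2 lower. Median centring at 6 h gave 1031 genes higher and 731 lower, against 697 and 915 without it. At 10 h 19.2% were called (10.5% higher and 8.64% lower), again against 3 of 7, 1 higher and 2 lower. Fosb and Batf3 were under the filter there.

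**Figure D1:**
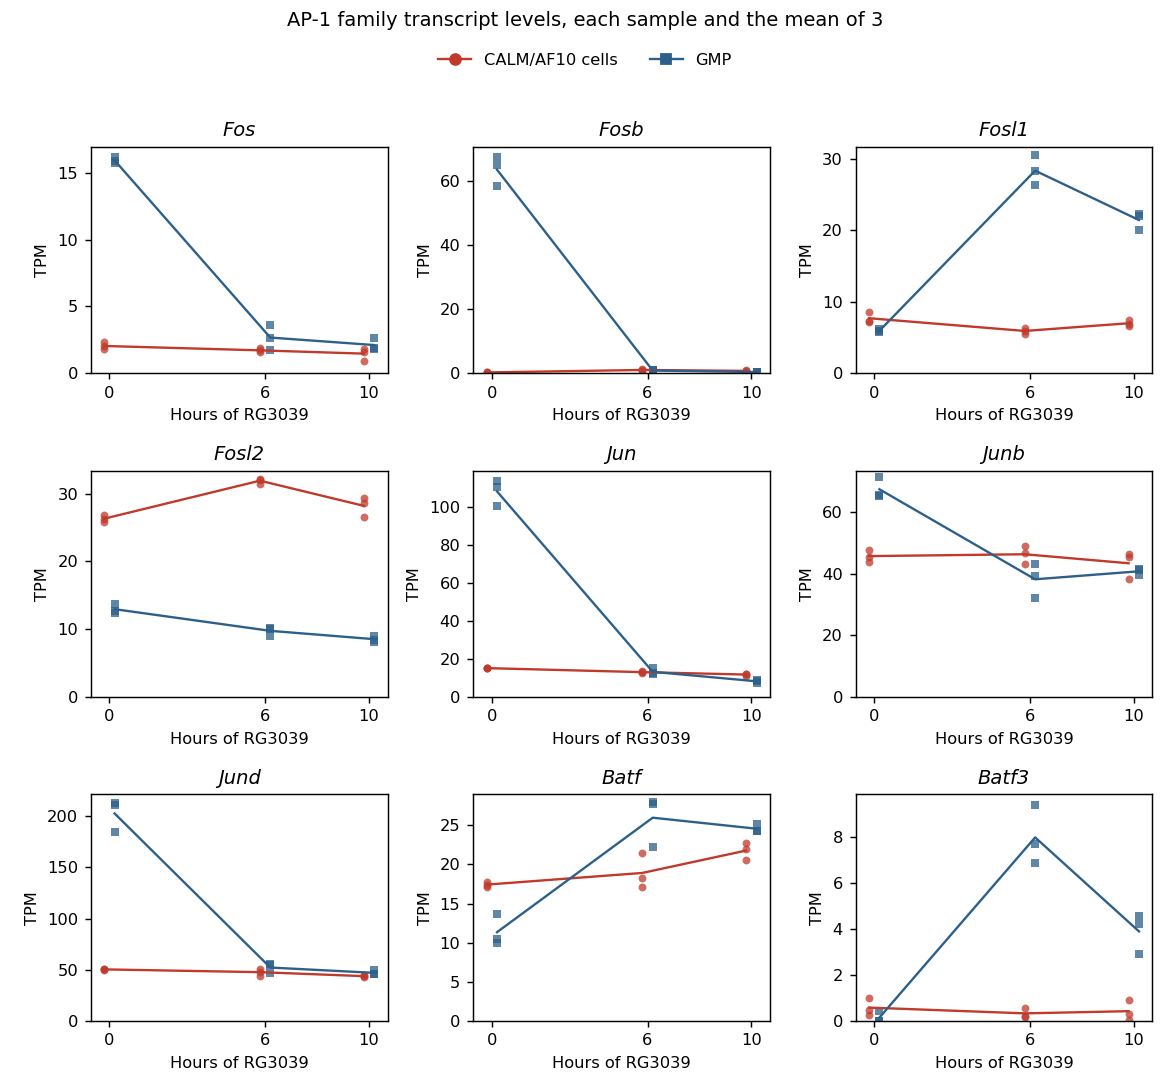
TPM of the 9 members at 0, 6 and 10 h of RG3039 in CALM/AF10 cells and in GMP, on a linear axis from 0 that differs between panels, with a point for each of the 3 samples and a line through the group means. In GMP the points of Fos, Fosb, Jun and Jund at 6 and 10 h lie far below those at 0 h, while those of Fosl1, Batf and Batf3 lie above; in CALM/AF10 cells the points of most members stay near one level.

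Among the FOS genes, Fosb fell the most in GMP. Fosb encodes a FOS protein known in mice for its long-lived splice form in stimulated neurons. In GMP its level was 67.3, 58.3 and 64.8 TPM at 0 h, 0.500, 0.833 and 0.827 TPM at 6 h and 0.215, 0.151 and 0.406 TPM at 10 h. No treated sample came near those at 0 h, and the mean was 88.2-fold lower at 6 h and 247.0-fold lower at 10 h than at 0 h. The change was -5.23 ± 0.13 on the log2 scale at 6 h (limma, adjusted p = 1.3e-08). Fosb passed the filter in GMP only through the 0 h samples, so it had to differ and this p-value adds no support. The leukemia cells held Fosb at 0.155, 0.0593 and 0.203 TPM at 0 h, 0.944, 1.07 and 0.702 TPM at 6 h and 0.388, 0.778 and 0.700 TPM at 10 h. These low levels did not overlap between the treated samples and 0 h, and the gene stayed under the filter. With no filter the same model gave 0.74 ± 0.11 at 6 h (limma, adjusted p = 0.0104) and 0.50 ± 0.11 at 10 h (limma, adjusted p = 0.0356).

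Fos, the founding member and partner of Jun, fell in GMP. Its level in GMP was 15.8, 16.3 and 15.9 TPM at 0 h, 1.75, 2.64 and 3.56 TPM at 6 h and 2.60, 1.79 and 1.88 TPM at 10 h. All treated samples were below all 0 h samples, with means 6.02-fold lower at 6 h and 7.63-fold lower at 10 h. The change was -2.25 ± 0.18 on the log2 scale at 6 h (limma, adjusted p = 1.49e-05). The leukemia cells had little Fos, at 1.77, 2.32 and 1.98 TPM at 0 h, 1.86, 1.54 and 1.68 TPM at 6 h and 1.83, 1.59 and 0.920 TPM at 10 h. Samples of the 3 times overlapped, and the log2 differences of -0.16 at 6 h and -0.32 at 10 h were not called (limma, adjusted p = 0.554 and 0.177).

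Fosl1 moved the other way in GMP. Fosl1 encodes FRA-1, a FOS protein that lacks the strong activation domain of Fos. In GMP it was at 5.68, 5.89 and 6.16 TPM at 0 h, 26.4, 28.3 and 30.5 TPM at 6 h and 20.1, 22.3 and 22.0 TPM at 10 h. The groups did not overlap, and the mean was 4.81-fold higher at 6 h and 3.63-fold higher at 10 h than at 0 h. The log2 change was 2.09 ± 0.08 at 6 h (limma, adjusted p = 1.22e-07), and between 6 and 10 h the level fell by 0.39 ± 0.08 (limma, adjusted p = 0.0221). Fosl1 in the CALM/AF10 cells was at 7.20, 8.48 and 7.34 TPM at 0 h, 5.91, 6.34 and 5.40 TPM at 6 h and 6.88, 6.63 and 7.39 TPM at 10 h. It fell by 0.33 ± 0.08 at 6 h on the log2 scale (limma, adjusted p = 0.0312), a call lost with no filter, with only the 2 groups in the fit, and without sample b or c at 0 h or sample a or c at 6 h (adjusted p 0.0615 to 0.107). The 10 h level overlapped that at 0 h and was not called (limma, adjusted p = 0.37).

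Fosl2, which encodes FRA-2, was the FOS gene with the highest level in CALM/AF10 cells and changed least among the FOS genes of GMP. In CALM/AF10 cells it was at 26.8, 25.8 and 26.3 TPM at 0 h, 31.5, 32.0 and 32.2 TPM at 6 h and 26.6, 29.3 and 28.6 TPM at 10 h. The 6 h samples stood above all those at 0 h, a rise of 0.27 ± 0.05 on the log2 scale (limma, adjusted p = 0.00655), and the 10 h samples did not pass the test (limma, adjusted p = 0.213). In GMP Fosl2 was at 13.7, 12.4 and 12.7 TPM at 0 h, 10.1, 10.2 and 8.99 TPM at 6 h and 8.32, 9.06 and 8.17 TPM at 10 h. Each treated group lay below 0 h, by 0.38 ± 0.08 on the log2 scale at 6 h (limma, adjusted p = 0.00509), and the mean at 10 h was 1.52-fold lower.

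All 3 JUN genes fell in GMP. Jun, the strongest activator of the branch, was at 114, 100.1 and 110.2 TPM at 0 h, 11.8, 12.7 and 14.9 TPM at 6 h and 8.41, 8.59 and 7.50 TPM at 10 h. The 3 groups were fully apart, with means 8.22-fold lower at 6 h and 13.2-fold lower at 10 h than at 0 h, and Jun was among the members that fell further between 6 and 10 h, by 0.62 ± 0.09 on the log2 scale (limma, adjusted p = 0.00657). The change at 6 h was -2.95 ± 0.09 (limma, adjusted p = 5.16e-08). The CALM/AF10 cells held Jun at 14.9, 15.4 and 15.0 TPM at 0 h, 13.3, 12.7 and 12.9 TPM at 6 h and 12.1, 11.1 and 11.9 TPM at 10 h. These groups also did not overlap, but the differences were small: -0.20 ± 0.06 on the log2 scale at 6 h (limma, adjusted p = 0.0411) and -0.34 ± 0.06 at 10 h (limma, adjusted p = 0.00254). The call at 6 h was lost when any 1 of the 6 samples was left out (limma, adjusted p 0.0785 to 0.125), after median centring and under quantile normalization, and the call at 10 h was kept in all of these.

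Jund, a JUN gene known for steady expression in resting cells and no classical early response gene, had the highest level of the family in GMP. It was at 211, 213 and 185 TPM at 0 h, 46.4, 54.4 and 55.4 TPM at 6 h and 49.2, 46.0 and 45.4 TPM at 10 h. Treated samples lay well below those at 0 h, with means 3.89-fold lower at 6 h and 4.33-fold lower at 10 h. The change at 6 h was -1.94 ± 0.08 on the log2 scale (limma, adjusted p = 3.31e-07). Jund in the CALM/AF10 cells was at 50.5, 49.2 and 51.1 TPM at 0 h, 50.7, 47.8 and 44.2 TPM at 6 h and 42.6, 44.9 and 43.6 TPM at 10 h. It fell by 0.20 ± 0.05 on the log2 scale at 10 h (limma, adjusted p = 0.0301), a call lost without any 1 of the 6 samples (adjusted p 0.0519 to 0.096), and at 6 h it was not called (limma, adjusted p = 0.396).

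Junb, which restrains the cell cycle where Jun promotes it, was at 65.1, 71.5 and 65.6 TPM at 0 h, 32.0, 39.2 and 43.3 TPM at 6 h and 41.1, 41.6 and 39.6 TPM at 10 h in GMP. Treated samples were all below the 0 h samples, with means 1.77-fold lower at 6 h and 1.65-fold lower at 10 h. The changes were -0.81 ± 0.10 on the log2 scale at 6 h (limma, adjusted p = 0.000179) and -0.71 ± 0.10 at 10 h (limma, adjusted p = 0.000368). The leukemia cells averaged, for Junb, 45.7 ± 1.95 TPM at 0 h, 46.3 ± 2.85 TPM at 6 h and 43.4 ± 4.36 TPM at 10 h (SD, n = 3 each). Those groups overlapped and neither difference was called (limma, adjusted p = 0.922 at 6 h and 0.541 at 10 h).

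Both BATF genes rose in GMP. Batf encodes a small zipper protein, without an activation domain of its own, that pairs with JUN proteins and IRF4 or IRF8 in lymphocytes and dendritic cells. In GMP it was at 10.4, 13.7 and 9.89 TPM at 0 h, 28.0, 27.7 and 22.2 TPM at 6 h and 24.3, 25.1 and 24.3 TPM at 10 h. All treated samples were above all 0 h samples, with means 2.29-fold higher at 6 h and 2.17-fold higher at 10 h, and the log2 change at 6 h was 1.13 ± 0.13 (limma, adjusted p = 0.000103). Batf in the CALM/AF10 cells was at 17.3, 17.2 and 17.8 TPM at 0 h, 17.1, 21.4 and 18.2 TPM at 6 h and 20.6, 22.0 and 22.7 TPM at 10 h. It rose by 0.31 ± 0.08 on the log2 scale at 10 h (limma, adjusted p = 0.0237), a call lost with no filter and without any 1 of the 0 h samples or sample b or c at 10 h (adjusted p 0.0551 to 0.0683). At 6 h the samples overlapped and no change was called (limma, adjusted p = 0.445).

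Batf3, the factor needed for cross-presenting dendritic cells in mice, was near absence in both cell types at 0 h. In GMP it was listed at 0.419, 0 and 0 TPM at 0 h and was at 9.39, 6.86 and 7.71 TPM at 6 h and 4.57, 2.89 and 4.22 TPM at 10 h. The treated samples were all above the 0 h samples, and limma gave a log2 change of 2.99 ± 0.20 at 6 h (adjusted p = 4.9e-06) and 2.11 ± 0.20 at 10 h (adjusted p = 3.26e-05), with a fall of 0.88 ± 0.20 between 6 and 10 h (adjusted p = 0.0314). Batf3 passed the filter in GMP only through the treated samples, so it had to differ from 0 h and the p-values against 0 h add no support. Batf3 in the CALM/AF10 cells stayed between 0.0552 and 0.997 TPM in all 9 samples, and with no filter it was not called (limma, adjusted p = 0.704 at 6 h and 0.794 at 10 h).

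Between 10 and 6 h, 3 of the 9 members were called in GMP, all lower, against 7.08% of genes called in that comparison, 3.21% higher and 3.87% lower. Over all genes 457 were higher and 552 lower, and after median centring 714 and 382. The members called were Fosl1, Jun and Batf3, of which Jun was kept without any single sample. Fosl1 lost its call without sample b or c at 6 h or any 10 h sample (limma, adjusted p 0.0557 to 0.086), and Batf3 without any 1 of the 6 samples (limma, adjusted p 0.0586 to 0.101). Fosl1 also lost it after median centring, and Batf3 with no filter and with a pseudocount of 0.1. Fosb, at -0.45 on the log2 scale, missed the threshold (limma, adjusted p = 0.0684) and passed it with a pseudocount of 0.1. None of the 7 members tested in CALM/AF10 cells was called between 10 and 6 h in limma, against 2.93% of genes (2.18% higher and 0.749% lower), and 4 of them had an unadjusted p under 0.05. The split over all genes was 280 higher and 96 lower, with 194 higher and 153 lower once samples were centred on their medians, and 119 higher and 154 lower under quantile normalization. Both of these settings called Fosl2 lower at 10 h.

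Whether the 2 cell types changed differently was itself tested, by subtracting the log2 change of GMP from that of the leukemia cells in 1 limma model of all 18 time-course samples. Fosb and Batf3 entered this model through the GMP samples. All 9 members were called at both times, 6 with a positive and 3 with a negative difference, against 38.5% of 14044 genes at 6 h (16.2% positive and 22.2% negative) and 38.7% at 10 h (18.5% positive and 20.2% negative). At 6 h the difference was 5.97 ± 0.18 on the log2 scale for Fosb, 2.75 ± 0.11 for Jun, 2.08 ± 0.24 for Fos, 1.86 ± 0.10 for Jund, 0.83 ± 0.13 for Junb and 0.65 ± 0.09 for Fosl2. It was negative for the other members, at -3.23 ± 0.33 for Batf3, -2.42 ± 0.11 for Fosl1 and -1.03 ± 0.15 for Batf. The adjusted p in limma ranged over the 9 members from 1.26e-12 for Fosb to 0.000121 for Junb. At 10 h the signs were the same, with 6.19 for Fosb, 3.23 for Jun and -2.27 for Batf3.

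**Figure D2:**
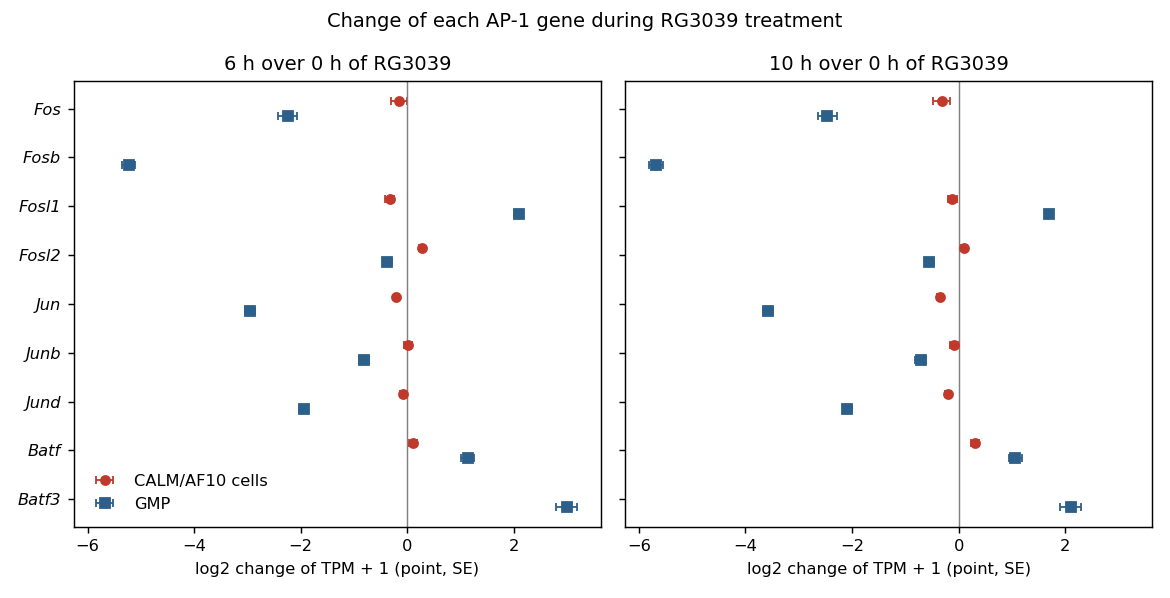
Log2 change of each member against 0 h at 6 h and at 10 h of RG3039, in CALM/AF10 cells and in GMP, with the limma standard error as the bar; Fosb and Batf3 have no point for CALM/AF10 cells, where they were not tested. The points of CALM/AF10 cells lie close to 0 and the points of GMP spread from -5.68 for Fosb at 10 h to 2.99 for Batf3 at 6 h.

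Set beside each other, the summed levels of the family in the 2 cell types were further apart at 0 h than at 6 or 10 h. This did not hold for each member: Fosl1, Fosl2, Batf and Batf3 were further apart in mean TPM at 6 h than at 0 h. The 9 members summed to 163.34, 164.56 and 167.69 TPM in CALM/AF10 cells at 0 h, beside 470.07, 490.96 and 502.8 TPM in GMP at 0 h. Under treatment the sums in CALM/AF10 cells were 162.27 to 170.42 TPM at 6 h and 154.54 to 161.81 TPM at 10 h, beside 166.42 to 187.42 TPM and 153.46 to 158.81 TPM in GMP at those times. The make-up of the family in GMP differed by time as well: Jund, Jun, Junb and Fosb gave 41.9%, 22.6%, 14.0% and 13.4% of the sum at 0 h (medians of 3 samples). At 6 h Jund and Junb were still the largest parts, with 29.6% and 21.4%, followed by Fosl1 with 15.8% and Batf with 15.2%. At 0 h in CALM/AF10 cells Jund gave 30.5%, Junb 27.6% and Fosl2 15.8%.

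**Figure D3:**
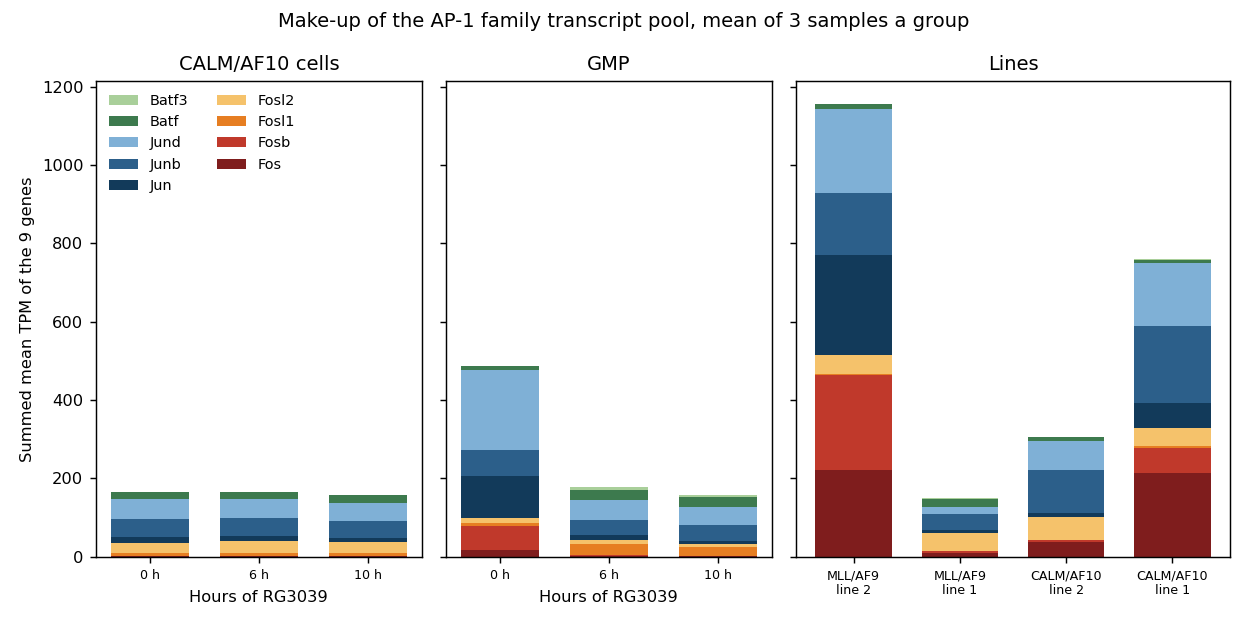
Summed TPM of the 9 members in the 10 groups, each bar split by member at its mean over 3 samples. The median sum of GMP was 490.96 TPM at 0 h, beside 182.79 TPM at 6 h and 157.56 TPM at 10 h, and those of the lines run from 148.34 TPM in MLL/AF9 line 1 to 1169.0 TPM in MLL/AF9 line 2.

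Markers of cell types moved with time in GMP. The 9 progenitor markers summed to 21020 to 21950 TPM at 0 h, 13160 to 13790 TPM at 6 h and 11040 to 11650 TPM at 10 h. The late neutrophil markers, 8 of 8 averaging at least 1 TPM at each time and none at 0, summed to 787.4 to 1017 TPM, 392.6 to 487 TPM and 331 to 344.4 TPM at 0, 6 and 10 h. The monocyte and macrophage markers, with 4, 6 and 7 of 9 averaging at least 1 TPM and C1qa listed at 0 at 6 h, summed to 3392 to 3612, 3027 to 3369 and 2290 to 2366 TPM. Ly6c2 led this sum at each time, so the sum need not speak for the other markers. B cell markers summed to 167.2 to 174.6 TPM at 0 h and 40.67 to 41.63 TPM at 10 h, led by Ighm, with 5 and 4 of 6 averaging at least 1 TPM. Among CALM/AF10 samples the erythroid markers summed to at most 1.55 TPM with Hbb-bs listed at 0, the progenitor sum stayed between 6696 and 7637 TPM, and the B cell sum was 122.5 to 131.4 TPM at 0 h and 63.31 to 69.6 TPM at 10 h. The part of these cell types in the changes of the family was not tested. In bulk RNA, fewer cells of a type and less RNA per cell cannot be told apart.

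Other genes of the AP-1 pathway were read from 7 lists. Among early response genes, which are induced by the same signals as Fos and Jun, 16 of 21 fell and 1 rose in GMP at 6 h, where 19.9% of all genes fell and 24.1% rose, with a median change of -1.11 against -0.02 over all genes tested. At 10 h 18 fell and 1 rose, against 21.5% and 23.7% of all genes. Dusp1, the phosphatase that switches off MAP kinases, averaged 4.10 ± 0.845 TPM at 6 h, against 125.9 ± 4.07 TPM at 0 h (SD, n = 3 each), a log2 change of -4.65 (limma, adjusted p = 2.17e-08). Btg2, an anti-proliferative gene, averaged 3.22 TPM at 6 h, against 23.6 TPM at 0 h, and Nr4a1, an orphan nuclear receptor, 2.72 TPM at 6 h, against 17.6 TPM at 0 h. Of 19 early response genes tested in CALM/AF10 cells, 4 rose and 2 fell at 6 h, where 5.44% of all genes rose and 7.14% fell, and 3 fell at 10 h, where 8.64% did. Egr1, a zinc finger factor downstream of serum response factor, averaged 20.5 ± 1.00 TPM at 6 h, against 13.6 ± 2.40 TPM at 0 h (limma, adjusted p = 0.0119), and Egr3 averaged 7.71 ± 0.841 TPM, against 4.69 ± 0.81 TPM (limma, adjusted p = 0.00656). As to the difference between the cell types, 16 of 21 were called with a positive and 2 with a negative sign at 6 h, against 16.2% and 22.2% of all genes, and Dusp1 gave 4.37 ± 0.15 (limma, adjusted p = 6.17e-12).

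Known AP-1 target genes split in both directions. In GMP 10 of 16 tested rose and 4 fell at 6 h, with a median change of 0.66, beside 24.1% and 19.9% of all genes and a median of -0.02. At 10 h 7 rose and 4 fell, beside 23.7% and 21.5% of all genes. The largest were Lpl, which encodes lipoprotein lipase and averaged 70.8 ± 2.31 TPM at 6 h, against 0.976 ± 0.35 TPM at 0 h, and the chemokine gene Cxcl2, at 0.457 TPM at 6 h, against 47.5 TPM at 0 h. The cytokine gene Tnf averaged 29.8 ± 2.47 TPM at 6 h, against 225.5 ± 15.2 TPM at 0 h. Of 14 tested in CALM/AF10 cells, 1 rose at 6 h (Ccl2, 30.2 ± 2.62 TPM against 24.1 ± 0.476 TPM at 0 h), where 5.44% of all genes rose, and 2 fell at 10 h, where 8.64% fell, among them Lpl at 16.3 TPM at 10 h, against 30.1 TPM at 0 h.

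The remaining lists also held members of both directions in GMP. At 6 h 44.0% of all genes tested were called in GMP, 24.1% higher and 19.9% lower, and 12.6% in CALM/AF10 cells, 5.44% higher and 7.14% lower. Of 17 bZIP relatives 7 rose and 6 fell in GMP at 6 h, with Cebpb, a myeloid differentiation factor, at 68.4 TPM at 6 h, against 38.8 TPM at 0 h, and Atf3, a stress factor, at 0.531 TPM, against 2.73 TPM. Of 16 tested in CALM/AF10 cells, 2 rose and 3 fell, Cebpb averaging 129.8 ± 7.34 TPM at 6 h, against 169.9 ± 20.4 TPM at 0 h. Of 16 MAPK kinases upstream of AP-1, 1 rose and 6 fell in GMP, and 1 rose and 1 fell in CALM/AF10 cells at 6 h. Both totals were near the share of all genes called, but in GMP most of those called fell, while 24.1% of all genes rose and 19.9% fell. Of 7 tested genes in the list of serum response factor and its cofactors, which also holds Tcf3 and Stat3, 3 rose and 1 fell in GMP. In CALM/AF10 cells 1 fell, Elk3, a cofactor, at 11.7 TPM at 6 h, against 19.8 TPM at 0 h. Among 16 genes of AU-rich mRNA decay and decapping, 3 rose and 5 fell in GMP, and 3 rose and 2 fell in CALM/AF10 cells at 6 h, the count in GMP being near the share of all genes. Zfp36, which binds AU-rich elements and speeds the decay of such mRNAs, averaged 51.8 TPM at 6 h, against 147 TPM at 0 h, in GMP. Dcps itself, the drug's target, averaged 18.8 ± 0.951 TPM at 10 h, against 15.4 ± 1.13 TPM at 0 h, in CALM/AF10 cells (limma, adjusted p = 0.0255). The authors listed a retained intron of Dcps in these cells, at 77% at 6 h, against 29% at 0 h. At 10 h a retained intron of Dcps was listed at 84%, against 57% at 0 h. Whether the rise in TPM was coding mRNA was not tested. Larger changes at 10 h in these cells were those of Dcp2, at 99.9 TPM, against 47.3 TPM at 0 h, and Dcp1b, at 1.87 TPM, against 6.34 TPM. Of 6 tested genes linked to JunB and BATF in blood cells, 3 rose and 2 fell in GMP at 6 h, with Cdkn1a, a cell cycle inhibitor, at 57.7 TPM, against 15.6 TPM at 0 h, and Irf8, a BATF partner, at 13.4 TPM, against 51.6 TPM. None of 8 was called in CALM/AF10 cells at 6 h in limma, and 1 rose and 1 fell at 10 h, when 19.2% of all genes were called.

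Some genes followed a member closely over the 9 GMP samples, which share their time points. By Pearson correlation of log2(TPM + 1), given as a description, Jun was most like Dusp1 (0.998), Fosb most like Cxcl2 (0.999), Jund most like Cxcl2 (0.998), Fos most like Rhob (0.996), Fosl1 most like Faap24 (0.998), Batf most like Yars (0.993) and Batf3 most like Gpt2 (0.993). For CALM/AF10 cells the closest was Mitf for Jun (0.985), Pigm for Fosl2 (0.987), Nrg4 for Jund (0.981) and Mbd2 for Batf (0.957).

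No member appeared in the junction tables. Those tables list only junctions that the authors found used more at 6 or 10 h than at 0 h. In the authors' deposited tables of changed splice junctions, 0 of the 9 members were listed for CALM/AF10 cells or GMP at 6 or 10 h, and 0 of the listed junctions lay within a member's span. Listed genes made up 2.66% and 3.85% of the genes tested in CALM/AF10 cells at 6 and 10 h, and 1.6% and 2.07% in GMP. Only 6 of the 9 members have more than 1 exon. Relatives of the family were listed: in the authors' deposited table for CALM/AF10 cells at 6 h, a junction with an alternative 3′ site of Jdp2, a repressor that pairs with JUN proteins, was used at 26%, against 0% at 0 h, and a junction with an alternative 5′ site of Map2k4, a kinase upstream of JNK, at 73%, against 46%.

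Between the 2 lines of each fusion, levels of most members differed. In MLL/AF9 line 2, Fos, Fosb, Fosl1, Jun, Junb and Jund were higher than in line 1 and Fosl2 and Batf lower. In CALM/AF10 line 2, Fos, Fosb, Fosl1, Jun, Junb and Jund were lower than in line 1 and Fosl2 slightly higher. Calls in the lines are adjusted p under 0.05 from edgeR's quasi-likelihood test on estimated reads summed per gene, over 15279 genes. Of these genes 59.1% were called between the MLL/AF9 lines (29.4% higher and 29.8% lower in line 2), against 8 of 9 members, 6 higher and 2 lower. Between the CALM/AF10 lines 28.3% were called (14.0% higher and 14.4% lower in line 2), against 7 of 9, 1 higher and 6 lower. The members' median log2 change was 2.12 against 0.05 over all genes in the MLL/AF9 lines, and -1.98 against -0.01 in the CALM/AF10 lines. Both medians are the value of Batf3, which had few reads, an SE of 1.15 and 1.13, and a call in neither pair. Fosl1 passed the filter only through MLL/AF9 line 2 and CALM/AF10 line 1, the lines in which it was high, and Batf3 through 4 of the 12 samples.

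**Figure D4:**
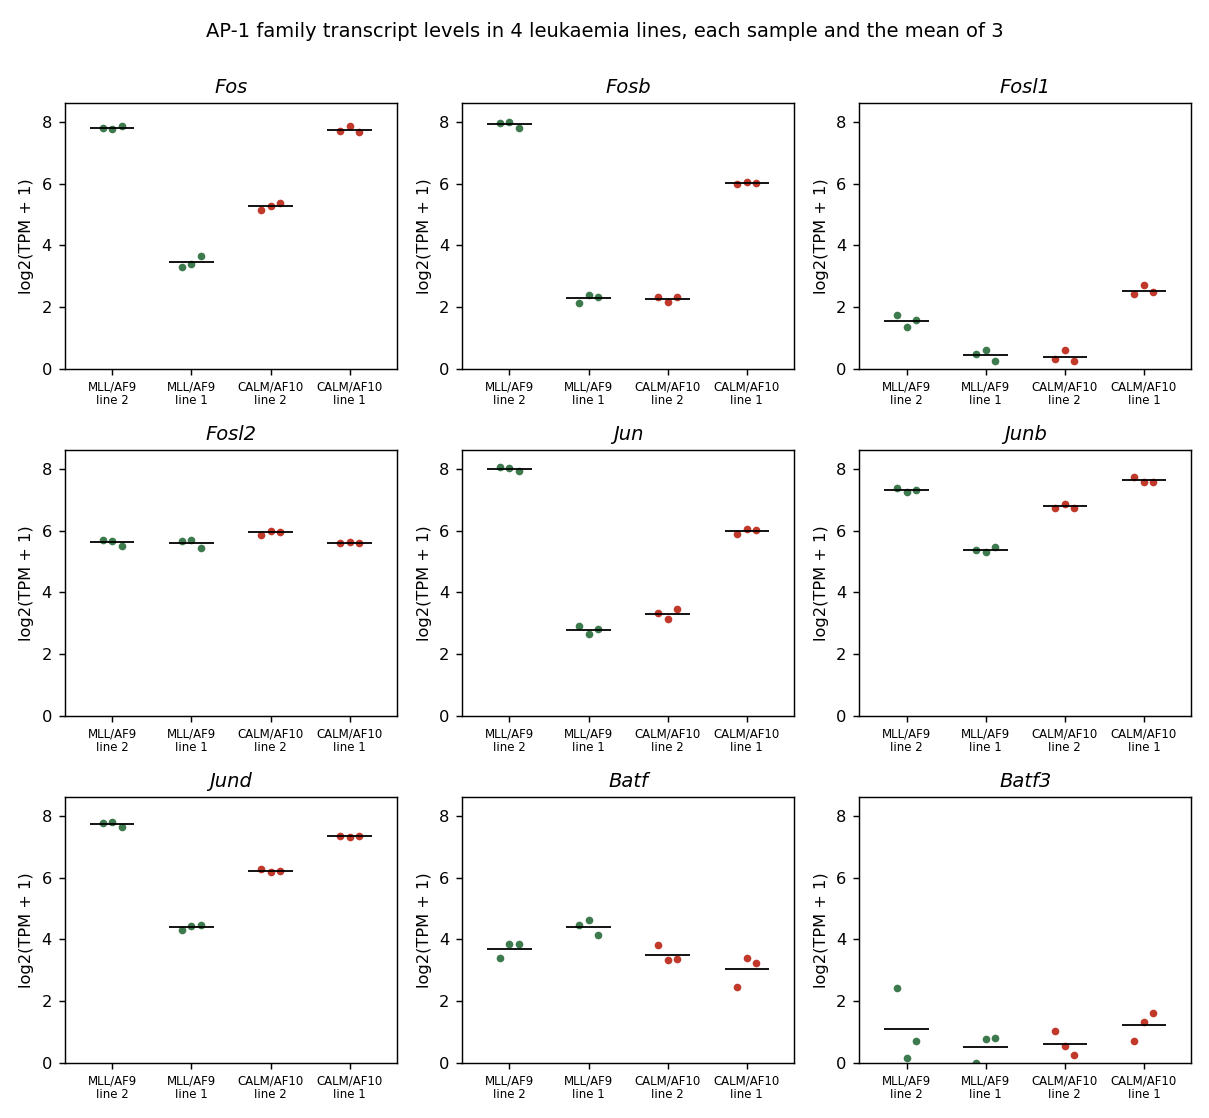
Levels of the 9 members in the 4 AML lines, as log2(TPM + 1), with a point for each of the 3 samples and a bar at the mean of their log2 values. Fos, Fosb and Jun stand high in MLL/AF9 line 2 and CALM/AF10 line 1 and low in the other two lines, while Fosl2 lies between 41.9 and 62.7 TPM in all of them.

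Fos was at 219.8, 217 and 231 TPM in MLL/AF9 line 2, against 8.72, 9.57 and 11.5 TPM in line 1. The lines were fully apart, 22.4-fold in mean TPM, with a log2 change of 4.41 ± 0.09 (edgeR, adjusted p = 3.26e-17). In CALM/AF10 line 2 it was at 34.6, 38.1 and 40.3 TPM, against 209, 231 and 203 TPM in line 1. That is 5.69-fold lower in line 2, with a log2 change of -2.96 ± 0.08 (edgeR, adjusted p = 7.24e-15).

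Jun also differed between the lines of both fusions. It was at 265, 261 and 244 TPM in MLL/AF9 line 2, against 6.42, 5.31 and 6.04 TPM in line 1, and at 9.06, 7.85 and 9.96 TPM in CALM/AF10 line 2, against 58.6, 65.3 and 63.5 TPM in line 1. No samples overlapped within either pair: Jun was 43.3-fold higher in MLL/AF9 line 2 (log2 5.06 ± 0.09, edgeR, adjusted p = 4.3e-18) and 6.98-fold lower in CALM/AF10 line 2 (log2 -2.97 ± 0.08, edgeR, adjusted p = 5.73e-15).

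Among the FOS genes, Fosb had the largest fold between line means in both pairs. It was at 248, 253 and 223 TPM in MLL/AF9 line 2, against 3.33, 4.24 and 3.99 TPM in line 1, and at 4.02, 3.44 and 4.01 TPM in CALM/AF10 line 2, against 61.8, 64.6 and 63.4 TPM in line 1. The means were 62.6-fold higher in MLL/AF9 line 2 (log2 5.60 ± 0.09, edgeR, adjusted p = 2.98e-18) and 16.5-fold lower in CALM/AF10 line 2 (log2 -4.27 ± 0.09, edgeR, adjusted p = 4.12e-16).

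Jund and Junb differed the same way by less. Jund averaged 214 ± 11.4 TPM in MLL/AF9 line 2, against 20.0 ± 1.24 TPM in line 1, and 74.0 ± 2.82 TPM in CALM/AF10 line 2, against 162 ± 2.59 TPM in line 1 (SD, n = 3 each). Junb averaged 159 ± 6.89 TPM in MLL/AF9 line 2, against 40.6 ± 2.14 TPM in line 1, and 109.6 ± 5.88 TPM in CALM/AF10 line 2, against 197 ± 12.7 TPM in line 1. All 4 differences were called, with log2 changes of 3.03 and 1.57 in the MLL/AF9 lines and -1.30 and -1.14 in the CALM/AF10 lines for Jund and Junb.

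The other members were low or near level. Fosl1 averaged 1.96 ± 0.379 TPM in MLL/AF9 line 2, against 0.386, 0.529 and 0.198 TPM in line 1 (log2 2.00 ± 0.44, edgeR, adjusted p = 0.000814). In CALM/AF10 line 2 it had 8, 23 and 8 reads, against 85, 146 and 89 reads in line 1 (log2 -4.07 ± 0.47, edgeR, adjusted p = 2.7e-06). Both p-values carry the limit that Fosl1 passed the filter only through MLL/AF9 line 2 and CALM/AF10 line 1, where it was high. Fosl2 kept to 41.9 to 51.3 TPM in all 6 MLL/AF9 samples, where the 2 lines overlapped in TPM with a ratio of means of 1.02 although the read test called it lower in line 2 (log2 -0.42 ± 0.06, edgeR, adjusted p = 1.38e-05). In the CALM/AF10 lines it averaged 60.4 ± 2.87 TPM in line 2, against 47.4 ± 0.585 TPM in line 1 (log2 0.18 ± 0.06, edgeR, adjusted p = 0.0416), a call lost with only these lines in the fit and without replicate 1 of either MLL/AF9 line or replicate 2 of MLL/AF9 line 2 (adjusted p 0.0505 to 0.0606). Batf was lower in MLL/AF9 line 2, at 9.40, 13.3 and 13.4 TPM, against a mean of 20.3 ± 3.56 TPM in line 1 (log2 -1.14 ± 0.24, edgeR, adjusted p = 0.000609), and was not called between the CALM/AF10 lines (edgeR, adjusted p = 0.425). Batf3 had 30, 1 and 3 reads in MLL/AF9 line 2 and was called in neither pair (edgeR, adjusted p = 0.122 and 0.209), though without MLL/AF9 line 2 replicate 2 the MLL/AF9 pair was called (log2 2.70, adjusted p = 0.0466).

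Summed over the family, MLL/AF9 line 2 held 1116.2 to 1185.8 TPM, against 144.72 to 153.59 TPM in line 1, and CALM/AF10 line 2 held 302.33 to 309.99 TPM, against 744.25 to 774.75 TPM in line 1. Neither pair overlapped. Jun and Fosb gave 22.3% and 20.9% of the sum in MLL/AF9 line 2 (medians) and Fos and Jund 18.5% each, whereas Fosl2, Junb, Batf and Jund gave 33.0%, 26.9%, 14.2% and 13.2% in MLL/AF9 line 1. Junb, Jund and Fosl2 gave 35.1%, 24.0% and 20.1% in CALM/AF10 line 2, and Fos, Junb and Jund 27.5%, 25.3% and 21.5% in CALM/AF10 line 1.

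No member was called between the fusions. With the reads of each line summed, so that 2 MLL/AF9 lines stood against 2 CALM/AF10 lines, edgeR called none of the 9 members, against 3.06% of all genes (0.923% higher and 2.13% lower). None had an unadjusted p under 0.05, and DESeq2 also called none. The log2 change of MLL/AF9 over CALM/AF10 lines was -0.74 ± 1.36 for Fos, 1.05 ± 1.71 for Fosb and 1.07 ± 1.48 for Jun, with errors as large as the values. With 1 line left out, an arm holds a single line that is assumed to vary like the lines of the other. So fitted, without CALM/AF10 line 1 the test called Fosb higher in the MLL/AF9 lines (log2 4.35, edgeR, adjusted p = 0.00889), and without MLL/AF9 line 2 it called Junb (log2 -2.26, adjusted p = 0.0419) and Jund (log2 -2.95, adjusted p = 0.0265) lower. For Fos, Fosb and Jun, the high line of each fusion had several times the level of the low line.

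The transcripts behind the line totals differed as well, given here without a test. The coding transcript Fos-201 made up 78.9 to 89.9% of the Fos TPM in MLL/AF9 line 2, against 52.5 to 65.8% in line 1, and 46.4 to 53.2% in CALM/AF10 line 2, against 69.7 to 73.0% in line 1. In CALM/AF10 line 2 the rest was Fos-203, annotated as a processed transcript. Of Fosb, the long coding form Fosb-201 of 338 residues gave 22.5 to 35.5% in MLL/AF9 line 2 and 21.4 to 35.1% in CALM/AF10 line 1, and Fosb-205 of 299 residues gave 35.2 to 49.6% and 37.1 to 52.4%. The retained-intron form Fosb-204 gave 76.1 to 93.0% in CALM/AF10 line 2, against 24.3 to 27.7% in line 1, and 25.9 to 27.8% in MLL/AF9 line 2, against 44.2 to 60.8% in line 1. Fosb-206 of 237 residues, the length of the truncated form known as delta FosB, was listed at 0 in the 9 samples of both MLL/AF9 lines and CALM/AF10 line 1. Of Fosl2, the coding transcript gave 24.6 to 36.5% in every line. Its level was 12.6, 13.2 and 13.6 TPM in MLL/AF9 line 2, against 16.8, 16.7 and 15.3 TPM in line 1, a pair that did not overlap.

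Early response genes differed between the lines too. Of all genes tested 59.1% were called between the MLL/AF9 lines, 29.4% higher and 29.8% lower in line 2, and 28.3% between the CALM/AF10 lines, 14.0% higher and 14.4% lower in line 2. In MLL/AF9 line 2, 19 of 21 were higher and 2 lower than in line 1, with a median log2 change of 2.03 against 0.05 over all genes. Egr1 averaged 258.5 ± 13.6 TPM in MLL/AF9 line 2, against 1.81 ± 0.555 TPM in line 1 (log2 6.77, edgeR, adjusted p = 4.3e-18), and Dusp1 307 ± 10.7 TPM, against 12.4 ± 0.852 TPM. In CALM/AF10 line 2, 1 was higher and 16 were lower, with Egr1 at 5.08 ± 0.12 TPM, against 112.5 ± 2.68 TPM in line 1 (log2 -4.63, edgeR, adjusted p = 1.27e-15). Known AP-1 targets were 10 higher and 1 lower of 15 in MLL/AF9 line 2, Cxcl2 averaging 116 TPM, against 0.123 TPM in line 1, and 3 higher and 7 lower of 15 in CALM/AF10 line 2. Of 16 MAPK kinases, 2 were higher and 9 lower in MLL/AF9 line 2, and 5 were higher and none lower in CALM/AF10 line 2. Both totals were near the share of all genes, but the directions were uneven, while those of all genes were nearly even. Of 8 genes in the list of serum response factor and its cofactors, none was higher and 6 were lower in MLL/AF9 line 2. That list also holds Tcf3 and Stat3, and Tcf3 was among those called lower. These calls come from reads, and not all of these genes were lower in mean TPM. Mrtfa averaged 105.5 ± 6.74 TPM in MLL/AF9 line 2, against 79.26 ± 5.43 TPM in line 1. Tcf3 averaged 40.99 TPM, against 38.55 TPM, and Elk3 12.78 TPM, against 12.71 TPM, while Elk1 was lower, at 5.92 TPM, against 6.95 TPM. In CALM/AF10 line 2, 1 gene of the list was higher. Of 17 bZIP relatives 4 were higher and 8 lower in MLL/AF9 line 2, with Atf3 at 13.9 TPM, against 0.595 TPM in line 1. The AU-rich decay list had 3 higher and 9 lower of 16 in MLL/AF9 line 2 and 3 each in CALM/AF10 line 2, and the JunB and BATF linked list 2 higher and 4 lower of 9, and 2 higher and 2 lower of 9. Between the fusions 0.923% of all genes were called higher and 2.13% lower in the MLL/AF9 lines. No early response gene was called there in edgeR. Of 15 AP-1 targets tested, 3 were lower in the MLL/AF9 lines, among them Mmp9 at a mean of 60.0 TPM, against 1566 TPM in the CALM/AF10 lines. Mmp9 is also among the 8 late neutrophil markers. Those summed to 837.8 to 1102 TPM in MLL/AF9 line 2 and 1259 to 1404 TPM in line 1. In CALM/AF10 line 2 they summed to 26280 to 27070 TPM and in line 1 to 26550 to 27070 TPM. The part of these cells in the Mmp9 difference was not tested.

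Markers and depth also differed between the lines. Stromal and endothelial markers, with 8 of 8 averaging at least 1 TPM in MLL/AF9 line 2 and 6 of 8 in line 1, summed to 238.1 to 245.2 TPM in line 2, against 65.94 to 68.24 TPM in line 1. Monocyte and macrophage markers, with 9 of 9 averaging at least 1 TPM in each line but MLL/AF9 line 1 with 8, summed to 1791 to 1842 TPM in MLL/AF9 line 2, against 5236 to 5663 TPM in line 1, and to 4479 to 4719 TPM in CALM/AF10 line 2, against 2404 to 2466 TPM in line 1. Ly6c2 led this sum in each line. Csf1r, another of these markers, averaged 45.4 TPM in MLL/AF9 line 2, against 48.4 TPM in line 1, and 43.6 TPM in CALM/AF10 line 2, against 21.6 TPM in line 1. Erythroid markers, with 6 of 7 and 7 of 7 averaging at least 1 TPM, summed to 125.6 to 132.9 TPM in CALM/AF10 line 2, against 941.5 to 1208 TPM in line 1. Depth was 9629415 to 12226344 reads a sample in MLL/AF9 line 2, against 20401661 to 25194822 in line 1, and 16687118 to 21128000 in CALM/AF10 line 2, against 8739673 to 11819510 in line 1, so in both pairs the line with the higher Fos, Fosb and Jun was the one sequenced less. The part of these cell types and of depth in the line differences was not tested.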

How the data were processed

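Total RNA of 30 mouse samples was sequenced; libraries used the Ovation Mouse RNA-Seq kit, as the labels' protocols state. The deposited TPM values of the time courses were made by the authors, 1 table per cell type, each sample summing to 1000000, so their depth is unknown. The columns name the group and no replicate, so samples are called a, b and c. For the 12 line samples the authors deposited TPM and estimated counts per transcript, with 8739673 to 25194822 reads a sample. The authors' junction tables give percent spliced in as group means rounded to whole percent, the log2 ratio, a false discovery q-value, and a mean raw count treated here as a score, with no preset splicing models, per the series' design text. The submitters' processing notes name STAR and mm10, without a stated role; aligner settings, quantifier and annotation are not given in the sources used here.

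Transcripts were matched to GENCODE M21 by ID without version (98206 of 99567, with 0.749 to 1.19% of reads unmatched) and summed per symbol, and estimated counts were rounded. Time courses were tested with limma 3.58.1 with a trend on log2(TPM + 1), for genes with at least 1 TPM in at least 3 samples, using all 9 samples of a cell type, or all 18 for the difference between cell types. Lines were tested with edgeR 4.0.16 (quasi-likelihood, TMM) under R 4.3.3, with the fusions compared on reads summed per line. Adjusted p-values are Benjamini-Hochberg over each whole table of tested genes, called under 0.05. The tests were tried on simulated data first. Alternatives were a pseudocount of 0.1, no filter, median centring, quantile normalization, fits on only the groups compared, RLE scaling, DESeq2 1.42.0, a replicate block and leaving out each sample or line. Same-numbered samples of 2 lines did not deviate together, with correlations of -0.000628 to 0.0399, so the numbers were not taken to pair them. The 9 members, the 7 gene lists and the 8 marker lists were chosen with earlier results of these data known. Named genes are all members, and from each list up to 4 called genes with the largest change per comparison. Likeness was ranked by Pearson correlation over 9 samples among coding genes.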

Additional observations from a re-analysis of the deposited data

Results flagged for a closer look

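All 9 members were picked out at both times because the limma test of the difference between the cell types, the log2 change of CALM/AF10 cells less that of GMP, passed its threshold. Among the FOS genes the difference at 6 h was 2.08 for Fos, 5.97 for Fosb, -2.42 for Fosl1 and 0.65 for Fosl2, and at 10 h it was 2.15 for Fos, 6.19 for Fosb, -1.82 for Fosl1 and 0.65 for Fosl2. For the JUN genes it was 2.75 for Jun, 0.83 for Junb and 1.86 for Jund at 6 h, and 3.23 for Jun, 0.63 for Junb and 1.89 for Jund at 10 h. For the BATF genes it was -1.03 for Batf and -3.23 for Batf3 at 6 h, and -0.76 for Batf and -2.27 for Batf3 at 10 h. A positive value means that the leukemia cells fell less, or rose more, than GMP. Both times are set against the same 0 h samples, so the 6 h and 10 h values are not independent of each other.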

How the results depend on the processing

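Of 1462 alternative values of single members, 1383 kept their direction and their side of the threshold, 44 lost a call, 21 gained one and 14 changed sign with no call before or after. All members' values kept both in GMP at 6 h and 10 h and in the difference between the cell types, except that Fosb fell below the filter without any single 0 h sample of GMP. In CALM/AF10 cells leaving out 1 sample gave 1 to 3 called members at 6 h and 1 to 3 at 10 h, where the full fits gave 3 each. Between 10 and 6 h the leukemia cells had no called member, and 1 (Fosl2) after median centring and 1 after quantile normalization. In GMP between 10 and 6 h leaving out 1 sample gave 1 to 3 called members, against 3 in full, and only Jun was kept throughout. Under leave-one-out Junb ranged from -0.022 to 0.065 (CALM/AF10 cells at 6 h), -0.13 to 0.0065 (at 10 h) and -0.015 to 0.20 (GMP, 10 over 6 h), Fos from -0.27 to 0.0092 (CALM/AF10 cells, 10 over 6 h) and Batf3 from -0.20 to 2.70 (MLL/AF9 line 2 over line 1, where MLL/AF9 line 2 replicate 1 holds most of its reads). Fosl2 between the CALM/AF10 lines lost its call with only those lines in the fit. Between the fusions leaving out 1 line, which leaves a single line in an arm, gave 0 to 2 called members, with ranges of -4.20 to 1.34 for Fos, -3.57 to 4.35 for Fosb, -3.23 to 1.20 for Fosl1, -3.03 to 3.17 for Jun, -2.95 to 0.077 for Jund, -0.34 to 0.81 for Batf and -2.26 to 0.42 for Batf3. The 12 samples taken as replicates called 7 members between the fusions, and 7 with the replicate block. Over all genes that comparison called 467, against 1459 in DESeq2, 1232 with no filter, 8794 with 12 samples and 8639 with 12 samples and the replicate block. Between 10 and 6 h the calls over all genes were 376 in CALM/AF10 cells, against 188 with no filter and 140 with only those groups, and 1009 in GMP, against 639 with no filter. The causes were not tested. The replicate block left 7 called members between the CALM/AF10 lines and 8 between the MLL/AF9 lines, as without it. Replicate numbers there did not pair samples, and CALM/AF10 line 2 replicate 3 correlated better with another number. No paired analysis was possible because the time-course columns carry no replicate number. Fosl1 and Batf3 rest on few reads in some lines, and the part of depth was not tested.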
